A study of Mus musculus with 12 samples.

Results

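The cytosolic ribosomal protein genes encode the proteins of the large (60S) and small (40S) subunits of the ribosome that works in the cytoplasm. Members were taken by symbol, as Rpl or Rps followed by a number and an optional a, x, y or l ending, together with Rplp0, Rplp1, Rplp2 and Rpsa, and leaving out the Rps6k kinases. This gave 84 of the 21859 genes in the table, 52 of the large and 32 of the small subunit. Of these, 77 were core ribosomal proteins (46 large, 31 small) and 7 were paralogs (Rpl3l, Rpl7l1, Rpl10l, Rpl22l1, Rpl36al, Rpl39l and Rps27l), genes that arose as copies of a core gene and encode a similar protein.

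The libraries came from undifferentiated spermatogonia, the testis cells that include the spermatogonial stem cells (SSCs), sorted as GFRa1+/KIT- from mice that carried a GFRa1-EGFP reporter and were 8 to 10 weeks old. The cryptorchid group (7 libraries) came from testes moved to the abdominal wall by surgery on the left side and taken 10 days later, and the control group (5 libraries) from testes that stayed in the scrotum, the right testis of operated mice in the study's description. The labels name the control genotype WT and the other group Cryptorchid, and do not say which libraries share a mouse. Each Smart-seq2 library was made from RNA of about 200 cells. Control testes were digested at 32°C and cryptorchid testes at 37°C, both for 9 min, so that surgery and digestion temperature cannot be told apart in any difference between the groups.

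Each ribosome carries 1 copy of nearly every core protein, so the core genes are expressed at high levels in all growing cells and mostly move together. Their mRNAs begin with a run of pyrimidines, the 5' terminal oligopyrimidine (TOP) motif, through which mTOR signalling controls their translation. Several ribosomal protein genes on the X chromosome have autosomal copies that are active in male germ cells, where the X chromosome is silenced during meiosis; Rpl10l and Rpl39l are such copies of Rpl10 and Rpl39.

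The promoter table of RefSeq (build GRCm38.p6) held 64 of the 84 genes, in 76 promoters. A run of 8 or more C or T on the sense strand, within 50 bases either side of the annotated start, was found in 59 of these 76 (77.6%), against 35.7% of all 32851 promoters. The ETS factor core CCGGAAG, searched on both strands over 300 bases, was found in 35.5% of the members' promoters and 8.86% of all, and the YY1 core AAGATGG in 15.8% and 6.34%. The longest pyrimidine run near the start is shown in capitals, within 30 bases read 5' to 3' on the gene's strand, for the genes on which the comparisons turn. Rpl22l1 and Rpl39 are the members called higher, and the others are their parent gene or paralog, the Rpl10 pair, and Rpl38, which had the lowest fold change.
Rpl22l1 (chr3:28805499-28805528, plus strand): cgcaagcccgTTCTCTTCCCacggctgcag
Rpl22 (chr4:152325679-152325708, plus strand): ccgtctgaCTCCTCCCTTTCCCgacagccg
Rpl39 (chrX:37085173-37085202, minus strand): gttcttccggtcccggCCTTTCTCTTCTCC
Rpl39l (chr16:10170191-10170220, plus strand): aacacccactgCCTCTCCCTagctcccagg
Rpl10 (chrX:74270836-74270865, plus strand): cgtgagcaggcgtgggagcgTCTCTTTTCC
Rpl10l (chr12:66284429-66284458, minus strand): tcagtctctatgaTTCCCgcaaggcttgat
Rpl38 (chr11:114668568-114668597, plus strand): ggaagcctcgTTCTTTCCCCgttctcttcg
The runs were 10 bases long in Rpl22l1 and Rpl38, 14 in Rpl22, 9 in Rpl39l and 5 in Rpl10l. Those of Rpl39 (14) and Rpl10 (10) reached the last base searched, so these lengths are lower bounds. Within the bases searched, the germ cell copies Rpl39l and Rpl10l had the shorter run of their pair. Relative to the RefSeq start, the runs began at -39 (Rpl22), -26 (Rpl39l), -44 (Rpl10l), -2 (Rpl38), 2 (Rpl22l1), 37 (Rpl39) and 41 (Rpl10). Negative positions lie before that start. It was 180 bases from the GENCODE gene start for Rpl39 and 72 for Rpl22l1. A match is a description of these letters, since the annotated start can lie away from the start in use.

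Ribosomal protein mRNA was abundant in every library, and its amount differed far more between libraries of 1 group than between the groups. The values were RPM, the reads on a gene scaled by the depth of its library, on a log2 scale. The members' median level over all libraries was 8.66, against 4.19 for the 16932 genes that passed a filter on low values (log2 of the mean RPM above -1). All 84 members passed that filter, 61 had a mean over 8, and 68 lay above the 95th percentile of the genes tested. The highest means were those of Rpl4 (10.98), Rpsa (10.53), which is also known as the laminin receptor, Rplp0 (10.49) and Rpl5 (10.26), and the lowest those of Rpl3l (2.31), the copy of Rpl3 known from muscle, and Rpl29 (3.91). These are levels per gene and not per length of transcript. Reads on genes ranged from 4511730 to 24345368 in the control and from 3306771 to 20027902 in the cryptorchid libraries.

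The share of all RPM that fell on the 84 genes was 3.72%, 5.06%, 1.56%, 7.49% and 5.66% in control replicates 1 to 5. In the cryptorchid libraries it ran from 1.56% (replicate 3) through a median of 5.09% to 5.73% (replicate 2). The groups overlapped throughout, and the lowest library in each group was replicate 3. Averaged over libraries the share was 4.70% ± 2.22 (SD, n = 5) for control against 4.42% ± 1.49 (SD, n = 7) for cryptorchid testes, a difference of -0.27 percentage points, which is smaller than either SD. Leaving out 1 library at a time moved this difference from -1.06 (without control replicate 3) to 0.42 (without control replicate 4), and it also turned to 0.20 without cryptorchid replicate 3. In such bulk libraries, fewer cells of a type and less RNA per cell cannot be told apart.

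**Figure D1:**
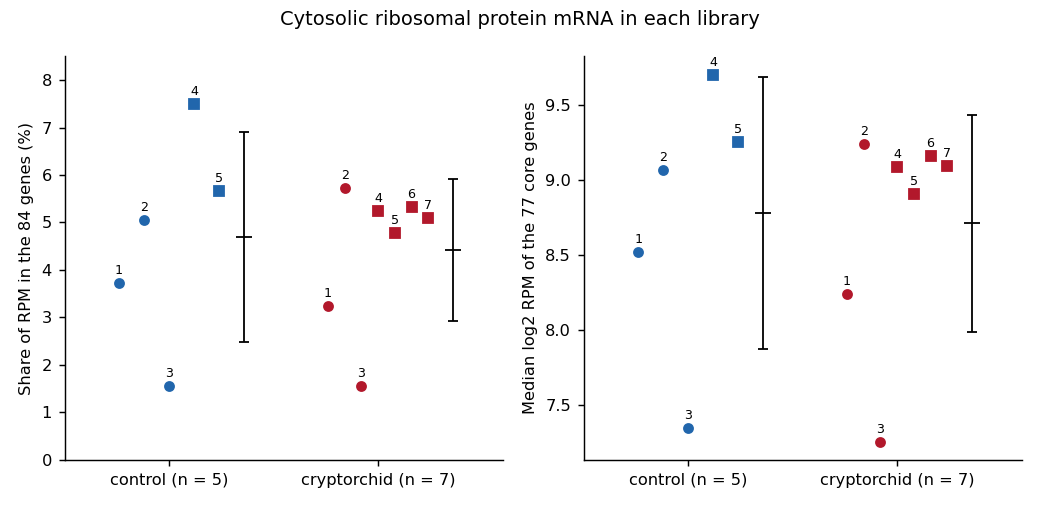
Left, percentage of RPM in the 84 ribosomal protein genes; right, median log2 RPM of the 77 core genes. Each point is a library with its replicate number (circles, replicates 1 to 3; squares, replicates 4 and above), and the bar is the group mean ± SD; replicate 3 is the lowest in both groups, at a share of 1.56%.

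The core genes moved together between libraries. Their median level was 8.52, 9.07, 7.35, 9.70 and 9.25 log2 RPM in control replicates 1 to 5, and from 7.26 (replicate 3) through 9.08 (replicate 4) to 9.24 (replicate 2) in cryptorchid. The SD of a core gene over libraries was 0.94 in control and 0.74 in cryptorchid (medians over the 77 genes, log2 scale). After the median of the core genes in each library was subtracted, it was 0.21 and 0.27. Rps2, a protein of the small subunit near the mRNA entry, kept the largest SD (1.26 in control and 1.29 in cryptorchid), and Rpl29, of the large subunit, had the next (0.87 and 0.61). Both have many near-identical copies: 64.7% of the 100-base stretches of the Rps2 transcript also occur in transcripts of 36 other genes, and 50.1% of those of Rpl29 in 27 others, and how reads with several matches were counted is not given in the sources used here. Rps2 was at 5.23, 5.59, 2.95, 8.67 and 5.70 log2 RPM in control replicates 1 to 5.

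The replicate 3 libraries of both groups stood apart in these genes. Against the other libraries of its group, the members' median was -1.81 (log2) in control replicate 3 and -1.69 in cryptorchid replicate 3, where the median of all tested genes with a transcript length was -0.43 and -0.39. Short genes as a class were low there: genes with a transcript of up to 600 bases had medians of -0.96 and -1.01, and genes over 4000 bases 0.17 and 0.02. The members were lower than other genes at each length. The 34 members of 600 to 1000 bases had medians of -1.83 and -1.71 where all genes of that length had -1.06 and -1.07. The 4 members of 2000 to 4000 bases had -1.71 and -1.40, where all genes of that length had -0.31 and -0.25. Rpl10l went the other way, higher in replicate 3 than in the other libraries by 0.53 in control and 0.63 in cryptorchid. Rpl4 was among the least affected (-0.65 and -0.78). The part of RNA quality or library preparation in this was not tested.

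The main comparison asked which members differed between cryptorchid and control GFRa1+/KIT- spermatogonia. Of the 84 members, 2 were higher in cryptorchid at an unadjusted P under 0.05 in limma, Rpl22l1 and Rpl39, where 5.67% of all genes tested were called higher. No member was called lower, where 3.82% of all genes were. At the same threshold with a 2-fold change the same 2 members were called, beside a background of 3.56% higher and 2.36% lower. None had an adjusted P under 0.05, which 1 gene in each direction had among all 16932 (0.00591% each). The members' median log2 fold change (cryptorchid minus control) was 0.01, against 0.10 for all genes tested. The sign of the members' median rested on single libraries: with 1 left out at a time it ran from -0.35 (without control replicate 3) to 0.28 (without cryptorchid replicate 3), and it was below zero also without control replicate 1 or cryptorchid replicate 2, 4, 5, 6 or 7. The mean was higher in cryptorchid for 44 members and lower for 40, and 76 of the 84 had a log2 fold change within 0.5 of zero. The spread between libraries left these estimates wide in this fit: the 95% interval lay within a 2-fold change in either direction for 23 of the 84. A moderate change could thus not be detected in it for most members. The count was 44 with a term for replicates 1 to 3 against 4 and above. It was 78 with the replicate number as a block, where the pairing is not settled. No member had groups that did not overlap, where 0.555% of all genes did not overlap with cryptorchid higher and 0.283% with cryptorchid lower.

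**Figure D2:**
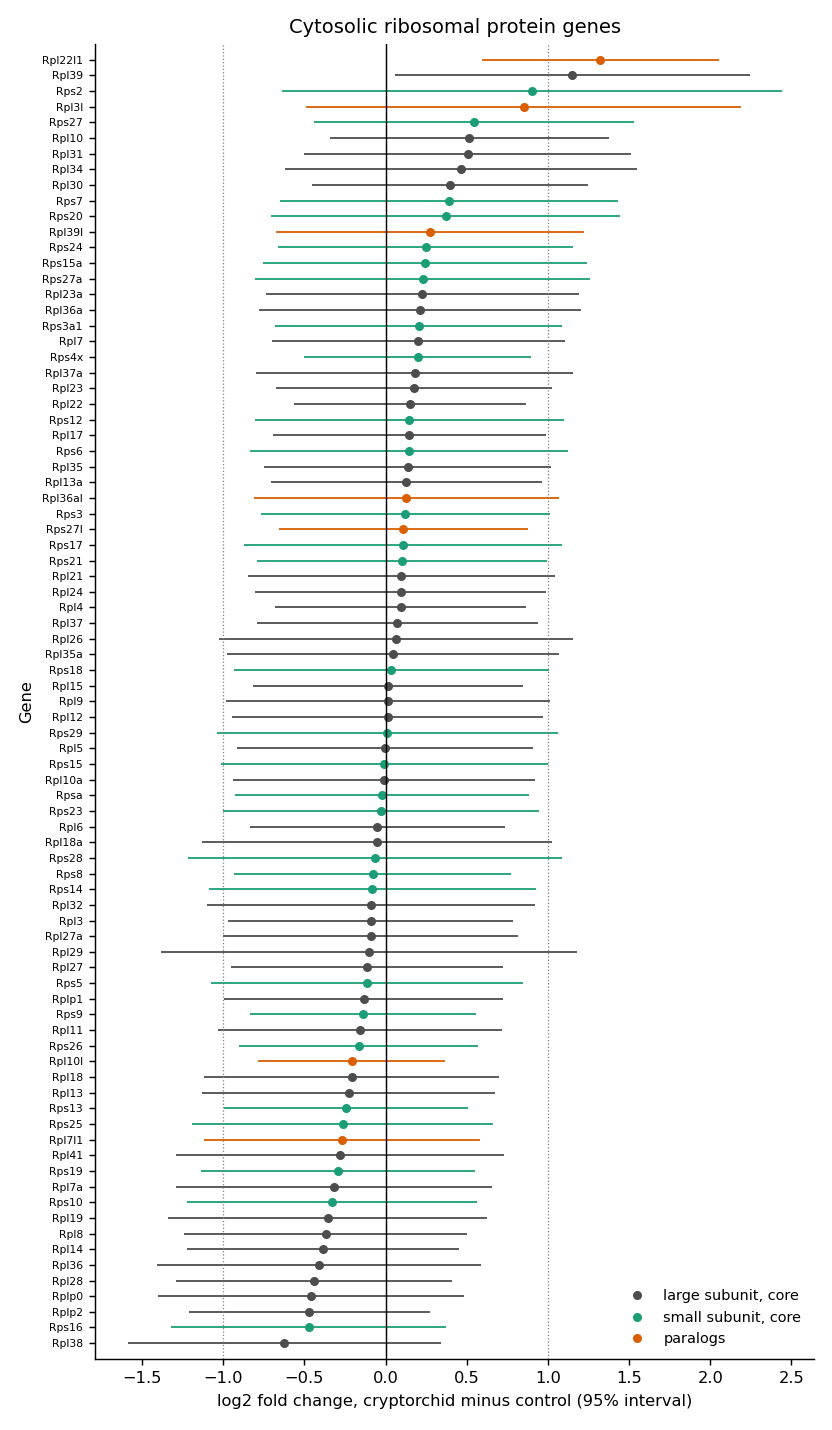
Log2 fold change (horizontal axis, cryptorchid minus control, limma) with its 95% interval for 83 of the 84 genes, in order of the fold change; colours mark core genes of each subunit and paralogs, and dotted lines mark a 2-fold change. The intervals of Rpl22l1 (0.59 to 2.05) and Rpl39 (0.06 to 2.25) are the ones that leave out zero.

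Rpl22l1 (chr3:28805436-28807424, plus strand) encodes a copy of the large subunit protein Rpl22, an RNA-binding protein known to hold down Rpl22l1. It was at 6.76, 7.14, 5.98, 7.51 and 6.80 log2 RPM in control replicates 1 to 5. In cryptorchid it ran from 6.83 (replicate 3) through a median of 8.42 to 8.71 (replicate 2). Of the cryptorchid libraries, replicate 3 lay within the control range, and the other 6 lay above every control library. The log2 fold change was 1.32 ± 0.35 (SE), a 2.50-fold higher level, with exact two-sided permutation P = 0.0101 and limma adjusted P = 0.215. It was 1.10 in replicates 1 to 3 and 1.33 in replicates 4 and above. The call was kept when each of the 12 libraries was left out in turn, with log2 fold changes from 1.11 to 1.54 and limma adjusted P from 0.0895 to 0.431. Of the 100-base stretches of its transcript, 45.3% also occur in transcripts of 2 pseudogenes (Gm15421 and Gm33051), so part of its signal cannot be assigned with certainty.

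Its parent gene Rpl22 (chr4:152325742-152334071, plus strand) shares no 100-base stretch with another gene. It was at 6.85, 7.24, 5.87, 7.56 and 7.32 log2 RPM in control and between 5.89 and 7.58 in cryptorchid, with a median of 7.25. The log2 fold change was 0.15 ± 0.34 (SE), limma adjusted P = 0.917, with a 95% interval from -0.57 to 0.87. Both genes were low in replicate 3 of each group, so the ratio of the paralog to its parent within a library is free of that shared movement.

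The log2 ratio of Rpl22l1 to Rpl22 was -0.09, -0.10, 0.11, -0.05 and -0.52 in control replicates 1 to 5. In cryptorchid it ran from 0.87 through a median of 1.05 to 1.21. All 7 cryptorchid libraries lay above all 5 control libraries, with a gap between 0.11 and 0.87, and the replicate 3 libraries no longer stood apart. The ratio was 2.25-fold higher in cryptorchid, a difference of 1.17 on the log2 scale, with exact two-sided permutation P = 0.00253, the smallest the 792 splits can give; the Benjamini-Hochberg adjusted value over the 7 paralog ratios was 0.0177. It was 1.001 in replicates 1 to 3 and 1.38 in replicates 4 and above. Per length of transcript, Rpl22l1 stood above Rpl22 by 1.83 (mean log2 ratio of RPM per kilobase) in control and 3.01 in cryptorchid, where the annotated transcripts used are 525 and 2048 bases long.

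Rpl39 (chrX:37082520-37085402, minus strand) is a small protein of the large subunit at the exit tunnel of the nascent chain. It was at 4.15, 4.76, 3.19, 6.18 and 6.01 log2 RPM in control replicates 1 to 5. In cryptorchid it ran from 4.33 (replicate 3) through a median of 6.22 to 6.83 (replicate 4). The groups overlapped, and in both of them the libraries numbered 4 and above held higher levels than replicates 1 to 3, apart from cryptorchid replicates 2 and 6, which were nearly level. The log2 fold change was 1.15 ± 0.52 (SE), 2.22-fold, with limma adjusted P = 0.501. The exact two-sided permutation test over all splits gave P = 0.0934, so the call of Rpl39 rested on the limma fit. It was kept in 4 of the 12 fits that leave out a library and lost without control replicate 1, 2 or 3 or cryptorchid replicate 2, 4, 5, 6 or 7, with log2 fold changes from 0.73 to 1.48 and limma adjusted P from 0.301 to 0.726. Within replicates 1 to 3 the difference was 1.19 and within replicates 4 and above 0.50.

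Rpl39l (chr16:10170226-10174911, plus strand), the autosomal copy known from the testis, shares no 100-base stretch with another gene. Its level was 6.70, 7.48, 6.25, 8.32 and 7.99 log2 RPM in control and between 5.99 and 8.43 in cryptorchid, with a median of 7.94. Its log2 fold change was 0.27 ± 0.45 (SE), limma adjusted P = 0.884, and the groups overlapped. Per length of transcript it was the more abundant of the pair in both groups, above Rpl39 by 2.096 on the log2 scale in control and by 1.22 in cryptorchid. Its log2 ratio to Rpl39, not corrected for length, was 2.55, 2.72, 3.06, 2.14 and 1.98 in control replicates 1 to 5, and from 1.25 through 1.598 to 2.22 in cryptorchid. The cryptorchid libraries lay below the control range except replicate 6, at 2.22. The ratio was 1.84-fold lower in cryptorchid, with exact permutation P = 0.00758 and an adjusted value of 0.0265 over the 7 ratios. The difference was -1.27 in replicates 1 to 3 and -0.36 in replicates 4 and above.

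**Figure D3:**
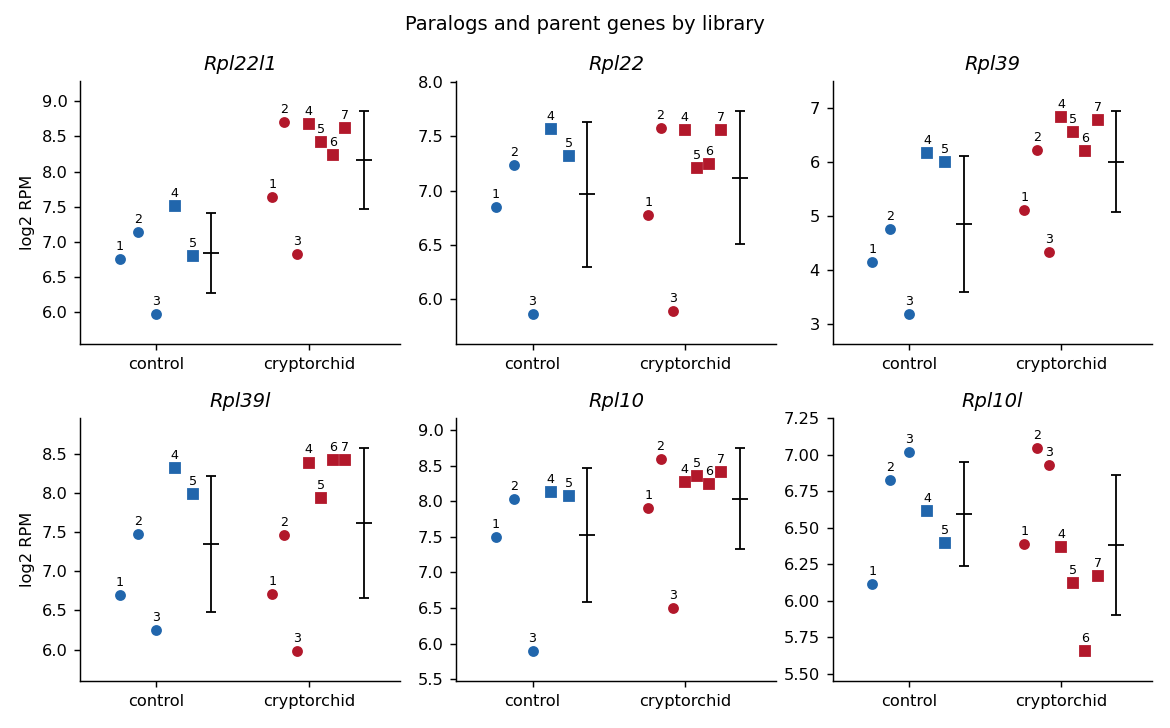
Log2 RPM of Rpl22l1, Rpl39 and Rpl10 with their parent gene or paralog in each library, marked by replicate number (circles, replicates 1 to 3; squares, replicates 4 and above), with the group mean ± SD; the vertical axes differ between genes. Replicate 3 is the lowest library of its group for all of these genes except Rpl10l.

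The X-linked Rpl10, at the ribosome's peptidyl transferase side, was at 7.50, 8.03, 5.90, 8.13 and 8.07 log2 RPM in control and from 6.50 through 8.27 to 8.60 in cryptorchid. Its log2 fold change was 0.52 ± 0.41 (SE), limma adjusted P = 0.725. Its copy Rpl10l, which takes its place in meiotic cells, was at 6.12, 6.83, 7.02, 6.61 and 6.39 in control and from 5.66 through 6.37 to 7.04 in cryptorchid, with a log2 fold change of -0.21 ± 0.27 (SE) and limma adjusted P = 0.847. The ratio of Rpl10l to Rpl10 was on average -0.93 ± 1.16 (SD, n = 5) for control against -1.66 ± 0.996 (SD, n = 7) for cryptorchid libraries on the log2 scale, with exact permutation P = 0.28. Control replicate 3 (1.11) and cryptorchid replicate 3 (0.42) were the only libraries with more Rpl10l than Rpl10 RPM. Without these libraries the difference was -0.56 with P = 0.0381 by the exact permutation test. They were left out after their values were seen, and this P was not adjusted over the 7 ratios. Of the 100-base stretches of Rpl10, 91.6% occur in transcripts of 10 other genes, while Rpl10l shares none.

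The other X-linked members were Rps4x and Rpl36a. Rps4x, of the small subunit, had a log2 fold change of 0.20 ± 0.33 (SE), and Rpl36a, of the large subunit, 0.21 ± 0.47 (SE), and neither was called. All 4 X-linked members had the higher mean in cryptorchid, as did 9596 of the 16932 genes tested, and 1 of them, Rpl39, was called. With a term for the set of replicates in the fit (replicates 1 to 3 against 4 and above), 3 of the 4 were higher.

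Of the other paralog ratios, none passed the exact permutation test. The ratio of Rpl3l to Rpl3 was higher in cryptorchid by 0.94 (exact P = 0.0631), and its control libraries were spread from -7.97 to -5.46; Rpl3l had between 11 and 417 reads in a library. The ratio of Rps27l, the copy of Rps27 that p53 is known to induce, to Rps27 was lower by a log2 difference of -0.43 (exact P = 0.0581), but 98.4% of the 100-base stretches of Rps27 occur in transcripts of other genes. The ratio of Rpl7l1 to Rpl7 differed by -0.47 (exact P = 0.217) and that of Rpl36al to Rpl36a by -0.09 (exact P = 0.432). When the permutation kept replicates 1 to 3 apart from replicates 4 and above, the exact P was 0.01 for Rpl3l and 0.0167 for Rps27l. This P counted absolute differences with the sets weighted equally, and was not adjusted over the 7 ratios. In the same permutation Rpl7l1 (exact P = 0.203), Rpl10l (0.347) and Rpl36al (0.497) did not pass. For the ratios reported above, this exact permutation gave P = 0.00333 (Rpl22l1 to Rpl22) and P = 0.0167 (Rpl39l to Rpl39).

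**Figure D4:**
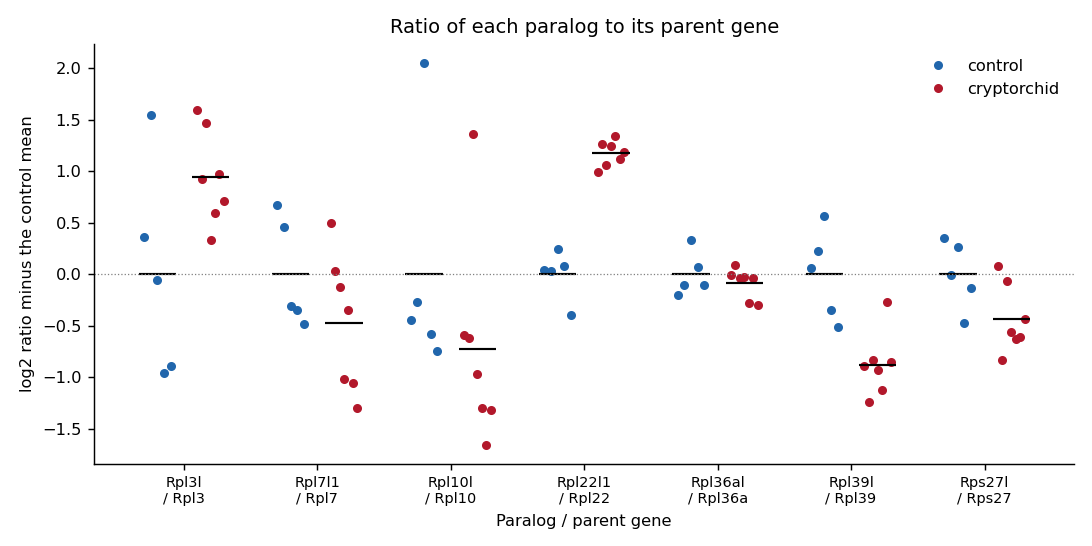
Log2 ratio of each paralog to its parent gene in each library, minus the mean of the control libraries, with a bar at each group mean; the ratio of RPM is not corrected for length. The groups do not overlap for Rpl22l1 to Rpl22 (control -0.52 to 0.11 and cryptorchid 0.87 to 1.21 before the control mean is subtracted).

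Among the core members the largest negative differences in mean were not called in the main fit, which had no block for the replicate number. Rpl38, a large subunit protein known for its part in translating Hox mRNAs, was at 7.08, 7.75, 5.47, 8.24 and 7.34 log2 RPM in control and from 4.84 through 6.83 to 7.26 in cryptorchid. Its log2 fold change was -0.62 ± 0.46 (SE), limma adjusted P = 0.701. Rps16, a small subunit protein near the decoding centre, had -0.47 ± 0.40 (SE), with a limma adjusted P = 0.742, and Rpl28 -0.44 ± 0.40 (SE), with an adjusted P = 0.764. The groups overlapped for all 3. Without control replicate 3, the library with the lowest ribosomal protein share of its group, Rpl38 (-1.05), Rps16 (-0.83) and Rpl28 (-0.81) were each called lower in limma. With the replicate number as a block, Rpl38 (-0.81, limma adjusted P = 0.0129) and Rps16 (-0.54, limma adjusted P = 0.0467) were lower, where 3.35% of all genes passed at 0.05. Whether these numbers pair the samples is not settled.

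The stalk of the large subunit, which recruits the elongation factors and is made of Rplp0, Rplp1 and Rplp2, had a lower mean in cryptorchid for each of its 3 genes. Rplp0 was at 10.74, 11.002, 9.17, 11.46 and 11.44 log2 RPM in control and from 9.20 through 10.51 to 10.82 in cryptorchid. Its log2 fold change was -0.46 ± 0.45 (SE), limma adjusted P = 0.779. Rplp2 had -0.47 ± 0.35 (SE), with a limma adjusted P = 0.708, and Rplp1 -0.14 ± 0.41 (SE), with an adjusted P = 0.937. None was called in the main fit over all 12 libraries, and without control replicate 3 Rplp0 (-0.86) and Rplp2 (-0.75) were called lower. With the replicate number as a block, 2 of the 3 were called lower, where 10.8% of all genes were.

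Beside the called genes, the largest positive differences in mean were those of Rps2 (0.90 ± 0.73 SE, limma adjusted P = 0.733), Rpl3l (0.85 ± 0.64 SE, limma adjusted P = 0.708) and Rps27 (0.54 ± 0.47 SE, limma adjusted P = 0.746), and none of these was called. Single libraries decided this for Rps2, called higher without control replicate 4 (1.66), and for Rpl3l, called higher without control replicate 2 (1.36). Rpl5 and Rpl11, which with the 5S rRNA form the particle that binds MDM2, had log2 fold changes of -0.0043 ± 0.43 (SE) and -0.16 ± 0.42 (SE). Rpsa had -0.02 ± 0.43 (SE).

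The libraries numbered 1 to 3 (3 control and 3 cryptorchid) and those numbered 4 and above (2 control and 4 cryptorchid) were also compared apart. Between 74.5% and 94.0% of the reads behind the RPM scale fell on the listed genes in the first set and between 94.8% and 99.9% in the second. The labels name no batch. In replicates 1 to 3 the members' median log2 difference was -0.01, and no member was called in limma, where 1.7% of all genes were called higher and 2.04% lower.

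In replicates 4 and above, 33 of the 84 members were called lower (39.3%), where 8.5% of all genes were. The members called higher there were Rpl22l1 and Rps27a, where 8.83% of all genes were called. Rps27a, made as a fusion with ubiquitin, had a log2 difference of 0.70 there and -0.56 in replicates 1 to 3, and 0.03 with a term for the set. The members' median log2 difference was -0.33, against 0.01 for all genes tested, and 68 of the 84 were lower. For 36 members (42.9%) the 4 cryptorchid libraries all lay below both control libraries, where 14.1% of all genes did. All 3 stalk genes were called lower there, with log2 differences of -1.04 (Rplp0), -0.93 (Rplp2) and -0.57 (Rplp1), and so were Rps16 (-0.95), Rpl28 (-0.88) and Rpl38 (-0.85). None of the calls had an adjusted P under 0.05. The control group is 2 libraries here and control replicate 4 holds the highest ribosomal protein share of all 12 (7.49%). The core genes moved together between libraries, so the members in these counts are not independent observations. A shift of 1 library moves most of them at once, and the shares of all genes do not measure chance for these counts.

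The difference between the sets was itself tested with an interaction term in limma. No member passed an unadjusted P under 0.05, where 1.03% of all genes had a lower and 0.555% a higher difference in replicates 4 and above. The difference was lower in replicates 4 and above than in replicates 1 to 3 for 72 of the 84 members, with a median of -0.34 against -0.05 for all genes tested. Since the core genes moved together, the 72 are not independent observations either. No single member was shown to differ between the sets, and a P that misses the threshold in sets this small does not show that they were alike. With a term for the set in the fit over all 12 libraries, Rpl22l1 (1.21, adjusted P = 0.123) and Rpl39 (0.87, adjusted P = 0.343) were called in limma at an unadjusted P under 0.05 and no member was called lower, beside a background of 5.64% and 5.73%. The members' median was then -0.16.

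**Figure D5:**
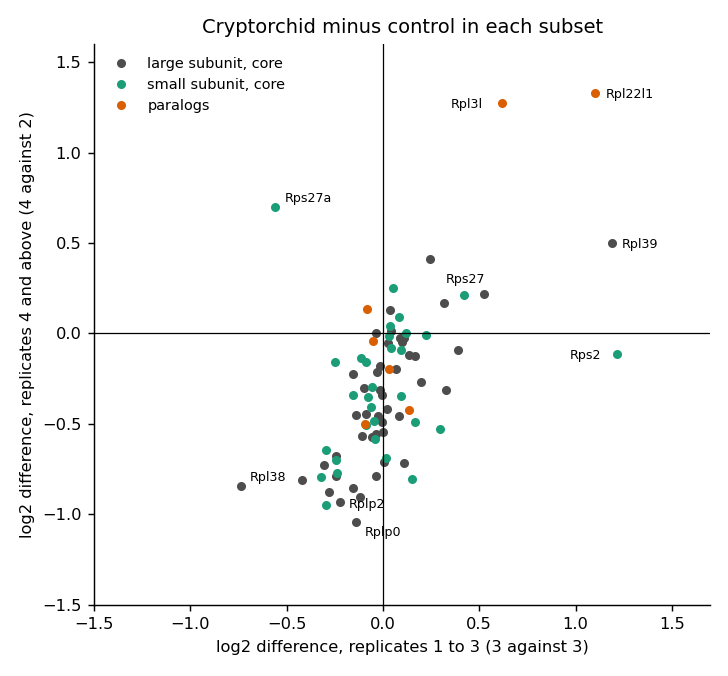
Log2 difference (cryptorchid minus control) of each of the 84 genes in replicates 1 to 3 (horizontal axis) and in replicates 4 and above (vertical axis), coloured by subunit and paralog status. Rpl22l1 is at 1.10 and 1.33, and 68 of the 84 genes lie below zero on the vertical axis against 45 left of zero on the horizontal axis.

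The calls also depended on single libraries, among them the replicate 3 libraries of low ribosomal protein share. Without control replicate 3, 10 members were called lower (11.9%, background 6.69%) and 1 higher, Rpl22l1 (1.19%, background 6.26%). Without replicate 3 of both groups, 10 were called lower (11.9%, background 6.44%). Each library scaled to the median of its core genes gave Rpl22l1, Rpl39 and Rps27 higher and none lower, beside a background of 3.43% and 1.42%.

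Markers of the sorted cells and of others were read in the same libraries. In the limma fit over all 12 libraries, 5.67% of all genes tested were called higher and 3.82% lower. Gfra1 was between 6.80 and 9.59 log2 RPM and Zbtb16 between 7.42 and 9.07 over all libraries, and Kit between 3.67 and 5.74. Of 12 spermatid genes, which encode products of haploid cells such as the protamines Prm1 and Prm2, 6 were called lower in cryptorchid. Their summed RPM ranged from 683 to 3796 in control and from 36.1 to 2437 in cryptorchid. Of 6 endothelial genes, 3 were called higher, namely Cdh5, Tie1 and Vwf, with summed RPM over the list of 10.3 to 29.3 in control and 19.4 to 49.9 in cryptorchid. Of the remaining lists, 1 of 15 genes of undifferentiated spermatogonia was called lower (Nanos3), and 1 of 7 of differentiating spermatogonia (Stra8), 1 of 13 of spermatocytes (Sycp2) and 1 of 4 of peritubular myoid cells (Des) were called higher, all named after their values were seen. No gene of the Sertoli cell, Leydig cell, macrophage or lymphocyte lists was called in limma at an unadjusted P under 0.05, out of 11, 3, 6 and 4 tested. The part of other cells' RNA in the ribosomal protein values was not tested.

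Genes that act with the ribosomal proteins were read in the same fit, where 5.67% of all genes tested were called higher and 3.82% lower. Of the 18 elongation factors and other mRNAs with a TOP motif, 1 was called higher, Vim, which encodes the intermediate filament protein vimentin (log2 fold change 1.81, limma adjusted P = 0.456), and none lower. Of 50 ribosome biogenesis genes, 4 were called lower and none higher. Gar1, of the H/ACA snoRNPs that guide pseudouridylation, had a log2 fold change of -0.92, Tcof1, which promotes rRNA transcription, -0.77, and Pes1, of the complex that matures the large subunit rRNA, -0.55. The last was Bysl, a small subunit maturation factor (-0.92), named after its value was seen. Of 15 tested genes of growth control, 1 was called, Eif4ebp1, whose product 4E-BP1 is a target of mTOR that holds back translation. It was at 6.73, 7.10, 5.16, 6.996 and 6.50 log2 RPM in control and between 4.21 and 5.90 in cryptorchid, with a log2 fold change of -1.47 ± 0.37 (SE), limma adjusted P = 0.208. The groups overlapped only through control replicate 3. Of 18 genes of ribosome quality control, 1 was called higher, the ubiquitin ligase gene Rchy1 (0.53, limma adjusted P = 0.507).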

How the data were processed

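GFRa1+/KIT- spermatogonia from 5 control and 7 cryptorchid testes were profiled by Smart-seq2. The deposited table holds log2 RPM values per gene, which the authors made by trimming with Trim Galore 0.6.6, mapping to mm10 with HISAT2 2.1.0 and counting over protein-coding genes in SeqMonk, per the labels and the study's methods; FastQC 0.11.8 is also listed in the submitters' processing notes. Whether strand was used and how reads with several matches were treated is not given in the sources used here.

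Samples were grouped by their titles. The RPM steps gave whole reads for 100% of the values (within 0.05 of a read, for values of up to 1000 reads), from which depth was read. Replicates are separate libraries, but the sources used here do not say which came from separate mice, so P-values measure the spread between these libraries; the 31 pairs of libraries within a group differed by 13.5 to 264 times sampling noise, and none was a repeat deposit.

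Genes whose mean RPM exceeded -1 on the log2 scale (16932) were fitted with limma 3.58.1 (lmFit, eBayes with trend) in R 4.3.3, two-sided, and called at an unadjusted P under 0.05, at the same with a 2-fold change, and at a Benjamini-Hochberg adjusted P under 0.05 over all genes tested. Limma on the log2 values took the place of the count test of the study, since the table holds no counts. Paralog ratios were compared by the exact two-sided permutation test over 792 splits (scipy 1.17.1). The fit was tested on simulated data. The members and the gene lists were chosen with earlier results of these data known.

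Named genes were every member called, the 5 members with the largest log2 fold change in each direction, the paralogs and their parent genes, Rplp0, Rplp1, Rplp2, Rpsa, Rpl5 and Rpl11, and up to 3 called genes per direction of each other list. Gene positions and transcripts came from GENCODE (GRCm38), which matched all 84 members, and promoters from RefSeq (GRCm38.p6). Some items are not reported here. Shared sequence is the share of the 100-base stretches of a transcript that occur in a transcript of another gene.

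Alternatives changed the scaling, pseudocount, filter, weights, unit (voom on the recovered reads), pairing, set of replicates and libraries. Leaving out both replicate 3 libraries, scaling to the core genes, ratios within each set of replicates and the interaction term were chosen after the values were seen.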

Additional observations from a re-analysis of the deposited data

Results flagged for a closer look

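Of 68 groups of values examined, 8 had a library far from the others of its group by Dixon's criterion. Chance alone marks about 1 group in 20 where groups are independent. These groups share libraries and the core genes moved together, so the count cannot be set against that rate. In 7 of the 8 that library was replicate 3. Rpl3 was at 7.17 log2 RPM in control replicate 3, where the other control libraries lay between 9.11 and 9.32, and at 7.17 in cryptorchid replicate 3, where the others lay between 8.72 and 9.26. Rpl10 was at 5.90 in control replicate 3 (others 7.50 to 8.13) and 6.50 in cryptorchid replicate 3 (others 7.91 to 8.60). Rpl11 was at 6.70 in cryptorchid replicate 3 (others 8.14 to 8.95). The log2 ratio of Rpl10l to Rpl10 was 1.11 in control replicate 3 (others -1.68 to -1.20) and 0.42 in cryptorchid replicate 3 (others -2.58 to -1.52). The log2 ratio of Rpl39l to Rpl39 was 2.22 in cryptorchid replicate 6 (others 1.25 to 1.66), and the exact permutation P of that ratio includes this library.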

How the results depend on the processing

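Rpl22l1 was called higher in every fit that leaves out 1 library, and the count of members called lower depended on the libraries. No member was called higher in replicates 1 to 3 alone (0), and the number called lower rose from 0 to 8 with array weights (9.52%, where 8.92% of all genes were called lower), 10 without both replicate 3 libraries (11.9%, background 6.44%), 17 with the replicate number as a block (20.2%, background 10.8%) and 33 in replicates 4 and above alone (39.3%, background 8.5%). The share with array weights was thus near the background. In that fit Rpl22l1 was higher (log2 fold change 1.35, limma adjusted P = 0.0135). At that level 1.19% of the members were higher, where 1.49% of all genes were. The members' median log2 fold change was -0.20 with array weights and -0.14 with the block. Leaving out 1 library at a time gave 1 to 3 members called higher and 0 to 10 called lower. The 10 were those without control replicate 3 (11.9%, background 6.69%), where 1 member was called higher (1.19%, background 6.26%). Rpl39 kept its call in 4 of the 12 fits. The core genes moved together between libraries, so the members in each count are not independent observations. In each of these cases the cause was not tested.

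Whether the replicate numbers pair the samples is not settled: the labels do not say which libraries share a mouse, and not every pair passed the correlation of 0.1 set for it. Libraries of the same number had correlations of their deviations from the group means of 0.35, 0.36, 0.41, 0.25 and 0.05 for numbers 1 to 5 (over the members alone, 0.34 to 0.78), and 4 of the 5 control libraries correlated best with their own number, as a hint from the data. With the replicate block, 3 members were called higher (Rpl22l1, Rpl39 and Rpl10; background 11.4%), and 2 of the 4 X-linked members had the higher mean. In that fit limma gave an adjusted P under 0.05 for Rpl22l1 (0.00233) and Rpl39 (0.018), 2.38% of the members, where 2.26% of all genes were higher. Of the members, 4.76% were lower at that level, where 3.35% of all genes were. Among them were Rpl38 (-0.81, 0.0129), Rps16 (-0.54, 0.0467) and Rpl41 (-0.58, 0.0483). These shares lay near the background. The block took the ratio of Rpl22l1 to Rpl22 to 1.18 and that of Rpl39l to Rpl39 to -1.004, both with P = 0.0625, the smallest that exact sign flips of 5 pairs can give.

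Paralog ratios within sets of replicates could not reach the threshold: Rpl22l1 to Rpl22 differed by 1.001 in replicates 1 to 3 (exact permutation P = 0.1) and 1.38 in replicates 4 and above (P = 0.133), and Rpl39l to Rpl39 by -1.27 (P = 0.1) and -0.36 (P = 0.4), where no lower P than 0.1 and 0.133 can be had. Rpl36al to Rpl36a turned to 0.0052 in replicates 1 to 3. Permutation within the sets, weighted equally, gave 1.15 for Rpl3l to Rpl3 and -0.36 for Rps27l to Rps27, past the threshold before adjustment. Leaving out both replicate 3 libraries gave -0.56 for Rpl10l to Rpl10, also past it before adjustment. Without cryptorchid replicate 3 Rpl10 was called higher (0.77), and without control replicate 3 Rpl7l1 lower (-0.70). With 1 library left out at a time, the ratio of Rpl3l to Rpl3 ran from 0.70 to 1.33, of Rpl10l to Rpl10 from -1.07 to -0.21 and of Rps27l to Rps27 from -0.55 to -0.35, past the threshold without control replicate 2, cryptorchid replicate 3, and control replicate 4 or cryptorchid replicate 1 or 3, respectively.

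Some uncalled log2 fold changes changed sign, most of them near zero; Rps2, at 0.90 over all libraries, was not. In replicates 1 to 3 alone Rpl10l was at 0.13, Rpl39l at -0.084, Rps27l at -0.053 and Rpsa at 0.30. In replicates 4 and above alone Rps2 was at -0.11, Rpl22 at -0.048, Rpl36al at -0.20, Rpl36a at -0.052 and Rps27l at -0.043. With the term for the set, Rpl36al was at -0.077, Rpl36a at -0.011 and Rps27l at -0.048. With the block, Rpl7 was at -0.047, Rpl36al at -0.072, Rpl36a at -0.019, Rpl39l at -0.048, Rps4x at -0.067 and Rps27l at -0.10. Scaled to the core genes, Rpsa was at 0.042 and Rpl5 at 0.061, and after quantile normalization Rpl5 was at 0.022. With 1 library left out at a time, Rpl3 ran from -0.51 to 0.17, Rpl7 from -0.15 to 0.45, Rpl22 from -0.13 to 0.35, Rpl36al from -0.21 to 0.43, Rpl36a from -0.21 to 0.52, Rpl39l from -0.0019 to 0.55, Rps4x from -0.027 to 0.38, Rps27l from -0.19 to 0.33, Rplp1 from -0.45 to 0.13, Rpsa from -0.35 to 0.18, Rpl5 from -0.35 to 0.23 and Rpl11 from -0.54 to 0.10.

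Scaling moved the median of all genes from 0.10 to 0.16 with the core genes as reference, 0.02 after quantile normalization and 0.03 after median centring. The shallowest library held 3306771 reads on genes, and the lowest core gene (Rpl29) had 27 reads in its lowest library. The part of depth in the spread between libraries was not tested.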
